A study of Mus musculus with 2 samples.

Results

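Macrophages that clear dying cells and debris carry a set of surface receptors for that work, and 10 genes of this set were followed from healthy to inflamed colon. They were Timd4, Cd36, Mertk, Axl, Msr1, Marco, Stab1, Lyve1 and Folr2, which encode receptors, and Mfge8, which encodes a secreted bridging protein. A gene was included when a probe set of the array was assigned to its symbol alone. This found all 10 genes, with 1 probe set each, among 19938 named genes. RNA of colonic lamina propria macrophages was hybridised to 1 array for mice on plain drinking water (control) and to 1 array for mice given 3% (wt/vol) dextran sulfate sodium (DSS), a polymer that injures the gut lining and causes colitis, each for 5 days. Both cell samples were sorted as CD45+, IAb+, CD11b+, F4/80+ and CD103- cells. The labels give neither the strain, age and genotype of the mice nor how many animals were pooled. With 1 array in each group there is no replicate error and no test, so every difference below is one between these arrays.

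Dying cells are recognised by phosphatidylserine, a lipid that moves to their outer surface. TIM-4, the Timd4 product, binds it directly, the receptor kinases MerTK and Axl bind it through the bridging proteins Gas6 and protein S, and MFG-E8 links it to integrins. Scavenger receptors such as CD36, SR-A (Msr1), MARCO and stabilin-1 (Stab1) take up modified lipoproteins, cell debris or microbes. LYVE-1 binds hyaluronan in the matrix and folate receptor beta (Folr2) binds folate, and both are used as marks of tissue-resident macrophages. In the gut wall, resident macrophages engulf dying epithelial cells, and monocytes from the blood renew part of the population.

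The genes separated into 5 that were lower in DSS by 3.64-fold to 12.3-fold and 5 that lay within 2-fold. Folr2, Lyve1, Cd36, Timd4 and Stab1 were the lower ones, and Mfge8, Mertk, Axl, Marco and Msr1 the others. No member was higher by 2-fold. Signals are log2 values as deposited, a difference is the DSS signal minus the control signal, and a difference of 1 is 2-fold. Genes were counted against all 11163 genes that reached the median signal on at least 1 array (5.70 for control, 5.62 for DSS), of which 3.03% lay 2-fold or more below control and 3.99% 2-fold or more above it. Of the members, 9 passed this rule and did so on both arrays, while Marco was under both medians. Across the 11163 genes the middle 90% of differences ran from -0.78 to 0.87, and their median was -0.03. The median over the 9 members was -1.86. Of the 11163 genes, 13 (0.116%) were at least 8-fold lower, and 4 of these were members, a set put together with earlier results of these data known. The resident macrophage markers Vsig4, Cbr2, Fcna, Cd209f and Cd163 and the scavenger receptor gene Colec12 were also among the 13. Their lists were chosen with the same results known. Beside these low values, neutrophil markers had a median difference of 3.92 and monocyte markers one of 3.64 on the same arrays. These medians were 2.78 and 2.89 over genes that reached the median signal on both arrays. The part of such cells in the members' values was not tested. In bulk samples such as these, fewer cells of a type and less RNA per cell cannot be told apart.

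**Figure D1:**
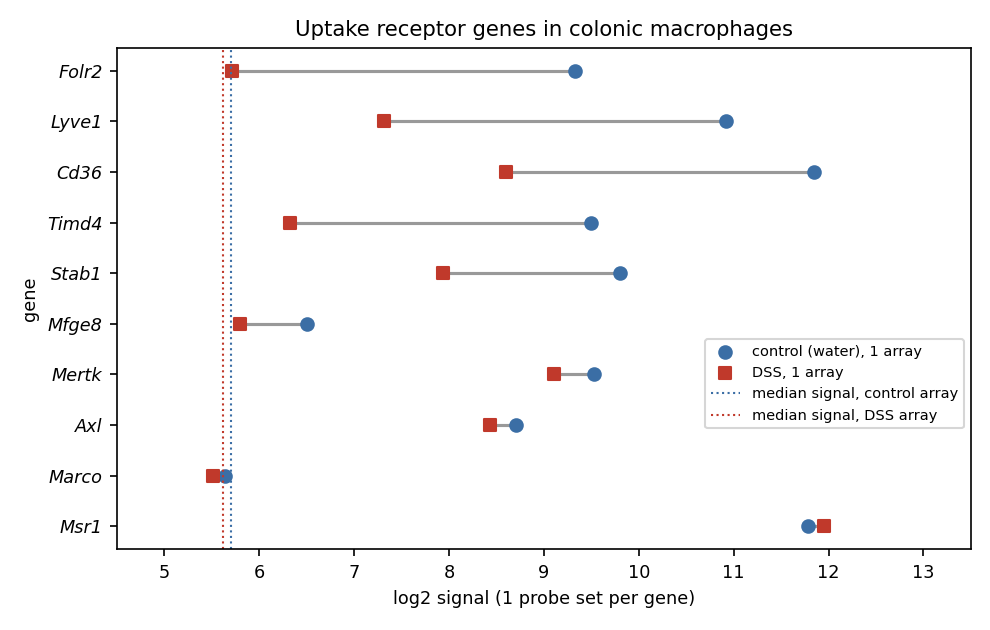
Log2 signal of each gene on the control array (blue circle) and the DSS array (red square), with dotted lines at each array's median signal. The 5 genes at the top have lines at least 1.86 long, and Marco lies left of both medians.

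Folr2 and Lyve1 had the 2 largest differences among the members, and their order turned under loess centring. Folr2 read 9.33 in control and 5.71 in DSS, a difference of -3.62 or 12.3-fold lower, and 2 of the 11163 genes lay further down. Its DSS signal was only 0.09 above the DSS array's median. A signal so near the median cannot be told from background, so the fold is not exact.

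Lyve1 read 10.92 in control and 7.31 in DSS, a difference of -3.61, with 4 genes further down. Its DSS signal stayed 1.69 above the array's median. Lymphatic endothelium also carries LYVE-1, and the lymphatic genes Prox1 (4.59 in control, 4.32 in DSS) and Flt4 (5.14 and 4.65) were below the medians of both arrays. Pdpn, which encodes podoplanin, a protein of lymphatic endothelium and of some macrophages, was bright and lower beside Lyve1, at 10.09 in control and 8.18 in DSS. The part of lymphatic cells in the Lyve1 value was not tested.

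Cd36 encodes a receptor for oxidised lipoproteins, fatty acids and dying cells. It read 11.85 in control and 8.60 in DSS, a difference of -3.25 or 9.49-fold lower, with 7 genes further down. Both signals were far above the array medians, by 6.14 and 2.98. CD36 is also found in fat cells and endothelium. Of 6 adipocyte marker genes, 2 passed the signal rule, Plin4 and Plin1 (differences of -0.32 and -0.08), and 0 of these were 2-fold apart. Adipoq was below both medians, at 4.41 in control and 5.43 in DSS, and without a signal rule it would count as 1 higher gene. Endothelial markers are given with Stab1 below. The part of fat cells and endothelium in the Cd36 value was not tested.

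Timd4 read 9.50 in control and 6.33 in DSS, a difference of -3.17, which left 11.1% of the control signal, with 10 genes further down. TIM-4 tethers dying cells and marks long-lived gut macrophages. Its DSS signal was 0.71 above the median, so the fold again ends at a dim signal.

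Stab1 encodes a large scavenger receptor of macrophages and sinusoidal endothelium. It read 9.80 in control and 7.93 in DSS, a difference of -1.86 or 3.64-fold lower, and 76 genes lay further down. Stab1 had the smallest difference of the 5 lower members, and Mfge8, at -0.70, was the first short of 2-fold, with a gap of 1.16 between them. Of the 12 endothelial and lymphatic markers measured, 5 passed the signal rule, 1 was lower (Pdpn, 3.76-fold) and 0 were higher. The mean level of all 12 was 5.84 on both arrays, but 7 of them did not pass and the others lay on both sides. Pecam1, Cdh5 and Flt1 had differences of 0.85, 0.59 and 0.49, and the median of the 5 passing genes was 0.49. The part of endothelial cells in the Stab1 value was not tested.

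**Figure D2:**
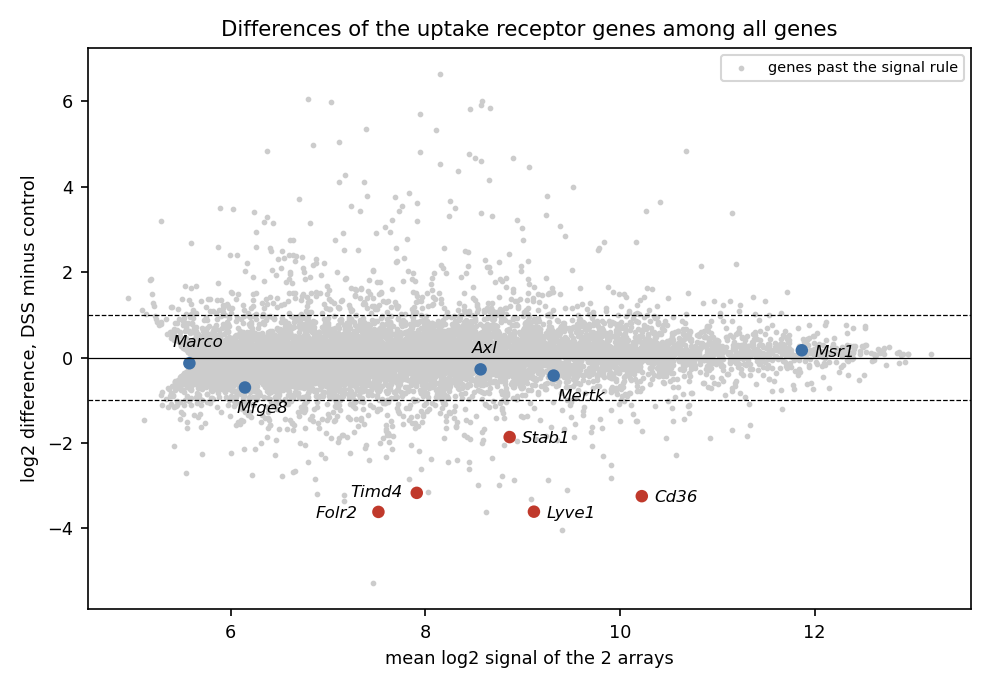
Log2 difference (DSS minus control) against the mean log2 signal for 11163 genes past the signal rule (grey) and the 10 members, red where at least 2-fold lower and blue otherwise; dashed lines mark 2-fold. The red genes lie at or below -1.86, and the blue genes lie inside the grey band.

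The bases upstream of 4 of the lower genes are shown because these genes were lower together. RefSeq start sites (build GRCm38.p6) were listed for 8 of the 10 genes, Folr2 with 2 starts, which gave 9 windows of 250 bases ending just before a start. Lyve1 and Msr1 had no entry. Capitals mark letters that match, on either strand, 1 of 6 short motifs. The Maf half-site was searched as TGCTGAC and the core of the PU.1 site as GAGGAA. The half-site of nuclear receptors was searched as AGGTCA and the C/EBP site of that family of factors as TTGCNNAA. The remaining pair were the E-box, which was searched as CACGTG, and the TATA box, which was searched as TATAAA. No matches of different motifs overlapped. The Cd36 window lies inside the span of the whole gene, before an internal start, and the Folr2 window is that of the outer start.
Timd4, chr11:46810549-46810798 (+ strand): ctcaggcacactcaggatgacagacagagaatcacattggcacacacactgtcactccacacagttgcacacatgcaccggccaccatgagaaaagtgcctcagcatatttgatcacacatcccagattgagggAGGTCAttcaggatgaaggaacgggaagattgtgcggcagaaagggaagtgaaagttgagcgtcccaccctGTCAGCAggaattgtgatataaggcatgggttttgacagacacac
Cd36, chr5:17835897-17836146 (- strand): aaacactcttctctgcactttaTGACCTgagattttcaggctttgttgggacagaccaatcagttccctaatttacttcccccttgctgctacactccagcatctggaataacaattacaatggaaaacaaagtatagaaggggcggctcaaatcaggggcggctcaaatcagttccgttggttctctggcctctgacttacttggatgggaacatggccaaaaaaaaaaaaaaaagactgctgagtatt
Stab1, chr14:31168642-31168891 (- strand): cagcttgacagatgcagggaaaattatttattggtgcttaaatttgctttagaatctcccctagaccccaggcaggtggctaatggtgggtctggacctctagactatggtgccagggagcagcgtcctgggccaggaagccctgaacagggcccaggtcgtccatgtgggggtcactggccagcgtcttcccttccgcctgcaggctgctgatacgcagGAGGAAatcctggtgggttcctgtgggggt
Folr2, chr7:101857191-101857440 (- strand): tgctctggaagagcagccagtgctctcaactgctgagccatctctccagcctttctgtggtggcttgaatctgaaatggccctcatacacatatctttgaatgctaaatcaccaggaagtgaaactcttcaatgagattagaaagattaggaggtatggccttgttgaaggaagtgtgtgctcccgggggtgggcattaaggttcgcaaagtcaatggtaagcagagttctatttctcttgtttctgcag
Timd4 had the nuclear receptor half-site at 116 to 111 bases before its start and the Maf half-site, on the reverse strand, at 45 to 39. Cd36 had the nuclear receptor half-site on the reverse strand at 228 to 223, and Stab1 had the PU.1 core at 30 to 25. Neither Folr2 window had a match. Among the genes within 2-fold, Marco, Axl and Mfge8 each had 1 PU.1 core, and Mertk had no match. Of all 32851 windows of this length, 3.81% held the Maf half-site, 14.0% the nuclear receptor half-site and 23.3% the PU.1 core. The C/EBP site, the E-box and the TATA box stood in 9.56%, 6.02% and 12.4% of all windows and in no member's. None of the motifs was found in all windows of the lower genes. A match is a description of letters, not a binding site. Maf itself read 8.14 in control and 7.09 in DSS, a difference of -1.05 that was -0.97 after median centring of the arrays. Among the 9 member windows its half-site stood in that of Timd4 alone. Of other such factors, the nuclear receptor genes Nr1h3, Pparg, Ppard and Rxra had differences of 0.82, 0.24, 0.04 and -0.45. Cebpe, of the C/EBP family, had one of 0.22. The part of these factors in the members' values was not tested.

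Among the bridging proteins and their kinases, the ligands differed more than the receptors. Mertk read 9.53 in control and 9.11 in DSS, a difference of -0.42, and Axl read 8.71 and 8.43, a difference of -0.28. Both lay inside the middle 90% of all genes, with 1724 and 2834 genes further down. The third kinase of the family, Tyro3, was below both medians (5.11 and 5.04). Gas6, the ligand of these kinases, read 10.25 in control and 7.27 in DSS, 7.88-fold lower. Pros1, which encodes protein S, read 8.59 and 7.54, 2.08-fold lower, although its difference of -1.06 became -0.98 after median centring and so fell short of 2-fold.

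Mfge8 read 6.50 in control and 5.80 in DSS, a difference of -0.70, with 686 genes further down. The DSS signal was 0.18 above the median, so this difference ends at a dim signal. The integrin chain genes Itgav and Itgb5, whose products receive MFG-E8, had differences of -0.74 and -0.25. A further integrin chain gene, Itgb3, was below both medians (5.38 and 5.62). Edil3, the relative of Mfge8, was below both medians (4.76 and 4.29). MFG-E8 is also made by fibroblasts, epithelium and dendritic cells. The mean level of the fibroblast markers was 6.44 in control and 6.25 in DSS, with 6 of 10 passing and 0 at 2-fold. Dcn, Col3a1, Col1a1 and Acta2 had differences of -0.58, -0.47, -0.27 and 0.23. For epithelial markers it was 5.81 and 6.08, with 7 of 12 passing and 1 higher (Fabp2, 2.64-fold). Car1, Muc2 and Cdx1 had differences of 0.83, 0.69 and -0.49. For dendritic cell markers it was 6.76 and 7.13, with 8 of 10 passing, 2 higher (Cd24a and Naaa) and 1 lower (Siglech). After median centring 4 were higher, with Ccr7 and Flt3 at 1.03 and 1.02 there. The part of these cells in the Mfge8 value was not tested.

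Msr1 read 11.78 in control and 11.95 in DSS, a difference of 0.17 that became -0.0034 under loess centring, so no direction is given. SR-A is a trimeric receptor for modified lipoproteins and bacteria, and its gene was 6.08 and 6.33 above the medians of the arrays. Marco, which encodes a related receptor for bacteria and particles, read 5.64 and 5.51, 0.06 and 0.11 under the medians. Its difference of -0.14 therefore compares 2 signals that cannot be told from background.

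Of the relatives of the 5 lower genes, only Havcr2, Scarb1, Scarb2 and Cd44 passed the signal rule, and none of these was lower by 2-fold. Only 3.03% of all 11163 genes were, so a group this small would seldom hold one. The other relatives were too dim to tell. Timd4 was beside Havcr2, which encodes TIM-3, at 9.21 in control and 10.03 in DSS, a difference of 0.82. The other TIM genes, Havcr1 and Timd2, were below both medians (4.32 and 4.44, 3.66 and 3.50). Scarb1 and Scarb2, of the CD36 family, differed by 0.12 each, against -3.25 for Cd36. The hyaluronan receptor gene Cd44 read 10.45 and 10.82, a difference of 0.37 against -3.61 for Lyve1. Stab2 (5.55 and 5.49), Folr1 (4.90 and 4.70) and Izumo1r (5.07 and 5.15) were below both medians, so nothing can be said of a change in them. In the class A scavenger family, Msr1 lay near 0, whereas Colec12, a scavenger receptor with a C-type lectin domain, read 8.78 in control and 5.55 in DSS, a difference of -3.23. The latter signal was under the median, where background cannot be separated, and that size is not exact. Scara5 (5.73 and 5.24) was dim on both arrays, and Scara3 (5.26 and 4.87) was below both medians.

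**Figure D3:**
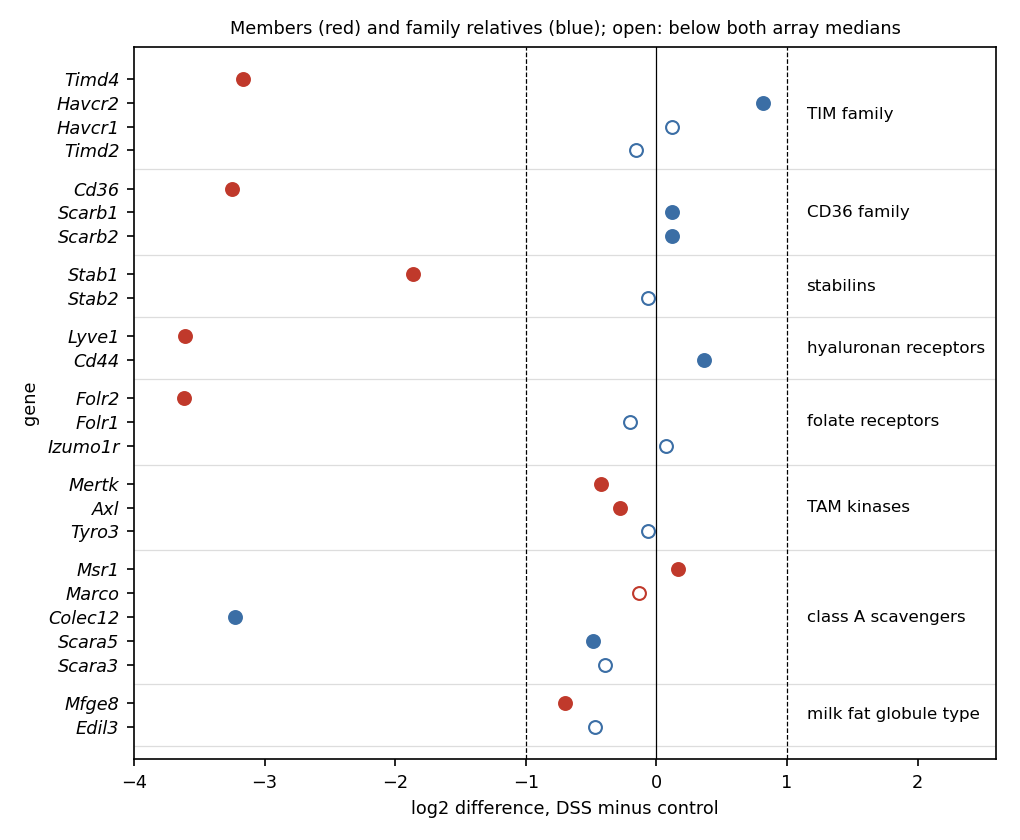
Log2 difference (DSS minus control) of the members (red) and of their family relatives (blue), grouped by family; open circles are genes below both array medians and dashed lines mark 2-fold. Timd4, Cd36, Stab1, Lyve1 and Folr2 lie left of -1 with no relative beside them, though several of their relatives are open circles. In the class A family only Colec12 lies left of -1.

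Other receptors for dying cells were mixed. Of 16 further receptors for phosphatidylserine or its bridging proteins, 10 passed the signal rule, 1 was lower by 2-fold or more, 8 were within 2-fold and 1 was higher. Their median was -0.26, but their mean was 0.09. The higher one was Cd300lf, an inhibitory receptor that binds phosphatidylserine, at 6.10 in control and 9.72 in DSS, 12.3-fold higher. Its control signal was dim, so the fold is not exact. Cd93 was 2.11-fold lower, and its difference of -1.08 became -0.99 after median centring. Cd14, the endotoxin co-receptor, had a difference of 0.53. Of 11 bridging proteins, 10 passed, 2 were lower (Gas6 and Pros1) and 1 was higher, with a median of -0.51. The higher one was Thbs1, which encodes thrombospondin-1, a ligand of CD36, at 10.82 in control and 12.16 in DSS, 2.52-fold. C1qa, a chain of the complement protein C1q, had a difference of -0.84.

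Of 19 other scavenger receptors, 14 passed, 3 were lower, 2 were higher and the median was -0.39. Besides Colec12, the lower ones were Cd163, the haemoglobin-haptoglobin receptor, at 10.74 and 7.43, and Mrc1, the mannose receptor, at 12.26 and 11.07. Olr1, which encodes the oxidised lipoprotein receptor LOX-1, was higher, at 6.04 in control and 9.27 in DSS, 9.34-fold, again from a dim control signal that leaves the fold inexact. Cd36 and Olr1, both receptors for oxidised lipoprotein, had differences of opposite sign. The other higher one, Dmbt1, a secreted scavenger protein of epithelium named after its value was seen, read 5.33 in control, under the median, and 6.36 in DSS.

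The machinery below the receptors lay within 2-fold, as most genes did. Of 16 measured genes that pass the engulfment signal to the cytoskeleton, 15 passed the signal rule and all 15 were within 2-fold, with a median of 0.07. Of all 11163 genes, only 3.03% were lower and 3.99% higher by 2-fold, so this count does not set the machinery apart. At a size of 1.5-fold, 3 of these genes were higher and 1 was lower. Vav1, Rac2 and Rhog, of the Rac pathway, had differences of 0.78, 0.74 and 0.63, and the exchange factor gene Dock1 one of -0.64. Among 16 genes that handle the lipid of engulfed cells, 0 were lower and 2 were higher, Fabp4 and Fabp5 (differences of 1.78 and 1.62), whose products carry fatty acids, with a median of -0.10 and a mean of 0.06. Nr1h3, which encodes the oxysterol sensor LXR alpha, had a difference of 0.82, and Lipa, the lysosomal lipase gene, one of -0.78. Of 11 measured genes for hyaluronan or folate handling, 4 passed and 0 were 2-fold apart, with a median of -0.13. The hyaluronan receptor gene Layn had a difference of -0.83, the folate carrier gene Slc19a1 one of -0.20 (0.10 in its other probe set) and Hyal2 one of -0.06.

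**Figure D4:**
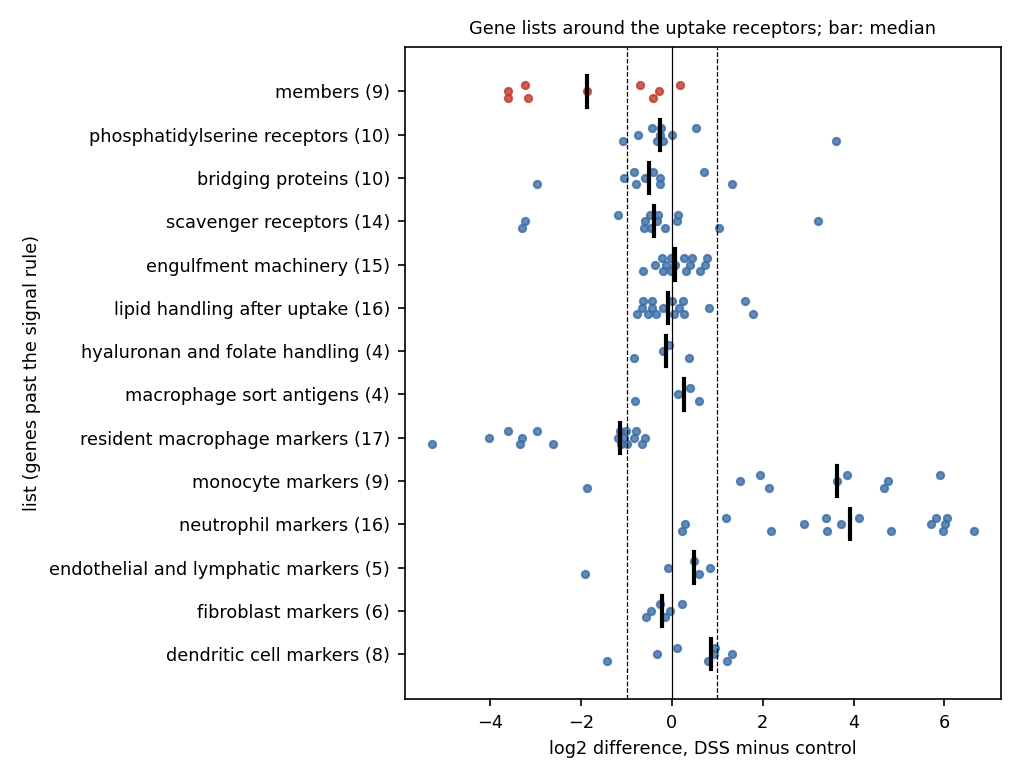
Log2 difference (DSS minus control) of each gene past the signal rule, by list, with the number of genes in brackets, a bar at the median and dashed lines at 2-fold. The members (red) have a median of -1.86, the engulfment machinery one of 0.07 and the neutrophil markers one of 3.92.

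Markers of other cells differed on the same arrays. Of 17 neutrophil markers, 16 passed; in DSS 14 were higher by 2-fold or more and 0 lower, with a median of 3.92. Many of them passed through the DSS array alone, and among those past the rule on both arrays 5 were higher, with a median of 2.78. The mean level over all 17 was 6.01 in control, where 6 reached the array's median, and 9.67 in DSS, where 16 did. Mmp8, Stfa3, Lcn2 and Ly6g, the neutrophil surface antigen, had differences of 6.65, 6.05, 6.01 and 5.97, all from control signals under the median. Cebpe had one of 0.22, and Elane was below both medians. Of 9 measured monocyte markers, 8 were higher and 1 was lower, and their mean level was 7.60 in control and 10.55 in DSS. Chil3, Hp, Ifitm6 and Vcan had differences of 5.91, 4.76, 4.67 and 3.85, and F13a1 one of -1.88. Of 13 measured lymphocyte markers, 4 passed and 3 were lower (Cd28, Cd4 and Cd2), with Cd79b at 0.10. The other 9, among them Cd3d, Cd3e and Cd3g, were below both medians, so nothing can be said of a change in them.

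The sort antigens and the resident macrophage markers were set beside the members. The antigens of the sort lay within 2-fold: Ptprc (CD45) had a difference of 0.40, Itgam (CD11b) 0.60, H2-Ab1 (IAb) 0.14, which turned to -0.04 under loess centring, and Adgre1 (F4/80) -0.82. Itgae, which encodes the excluded CD103, was below both medians. Most neutrophil and monocyte markers were higher on these arrays, and the part of such cells in the antigen values was not tested. Measured against Adgre1 on the same arrays, the differences of Folr2, Lyve1, Cd36 and Timd4 were lower still, by a log2 value of 2.79, 2.79, 2.42 and 2.35, and that of Stab1 by 1.04. Such a subtraction cannot tell fewer cells of a type from less RNA per cell, and neither was tested. Those of Mertk and Axl were higher than that of Adgre1, by 0.40 and 0.54. Against the other antigens they were lower, by 0.82 and 0.68 for Ptprc, 0.57 and 0.42 for H2-Ab1 and 1.03 and 0.88 for Itgam. So the place of Mertk and Axl depends on the antigen chosen. Of 17 measured genes of resident tissue macrophages outside the members, 12 were lower by 2-fold or more, 5 lay within 2-fold and 0 were higher. Their median was -1.14 and their mean -2.04, against -1.86 for both measures in the members, so the lists have no fixed order. Of all 11163 genes, 3.03% were lower by 2-fold or more. The resident list was chosen with earlier results of these data known, so its count is no separate support for the members. The complement receptor gene Vsig4 read 10.11 in control and 4.82 in DSS, and Cbr2, Fcna and Cd209f had differences of -4.03, -3.61 and -3.36. C1qb, at 11.27 and 10.67, had the smallest difference of the list. Gas6, Cd163, Mrc1 and the C1q genes stand in this list and in those above, so the lists are not independent.

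**Figure D5:**
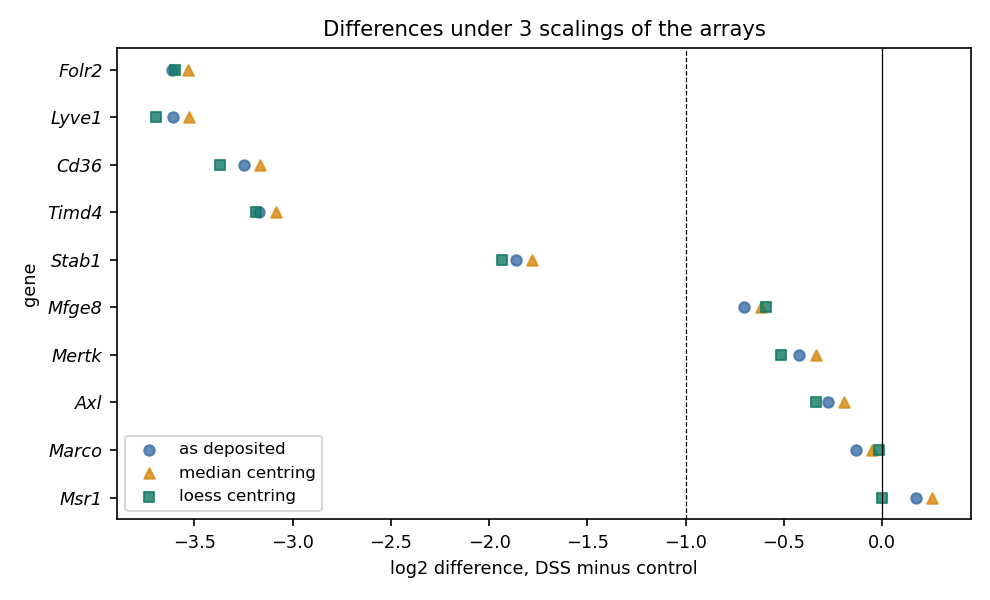
Log2 difference (DSS minus control) of each member as deposited (circle), after centring each array on its median (triangle) and after loess centring (square); the dashed line marks 2-fold lower. The 5 lower genes stay left of the dashed line under each scaling, and Msr1 touches 0 under loess.

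Rescaling the arrays did not move a member across the 2-fold size. Between the 3 scalings, Folr2 ranged from -3.62 to -3.53, Lyve1 from -3.70 to -3.53, Cd36 from -3.37 to -3.16, Timd4 from -3.19 to -3.09 and Stab1 from -1.94 to -1.78. Mertk stayed between -0.52 and -0.34 and Axl between -0.34 and -0.19.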

How the data were processed

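RNA (100 ng per sample) was amplified into biotin-labelled cRNA and hybridised to 2 arrays, 1 in each group. The authors deposited log2 signals for 35556 probe sets. RMA, which corrects background, normalises between arrays and summarises probes, is named in the submitters' processing notes without a version. Its settings were not given in the sources used here. No further scaling was applied to the main values. RMA compresses differences between dim signals, there are no detection calls, and array batch and treatment cannot be told apart.

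Probe sets were named from the platform annotation table: 21789 had 1 gene symbol, 1621 had several and were not used to name genes, and 12146 had none. A gene took its probe set of highest mean signal. Genes entered counts and medians when at least 1 array had them at or above its median over 28939 probe sets. All 10 members matched RefSeq by Entrez identifier. No test was possible, and the number of arrays limits the precision. Genes were counted at 2-fold. As yardsticks, the robust SD of all differences was 0.39, and probe sets of the same gene had a pooled SD of 0.28 over 638 genes.

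The members, lists and alternatives were chosen with earlier results of these data known. Named genes are the members, their relatives, the sort antigens, and in each other list the 4 passing genes furthest from 0 and the one furthest the other way. Further genes (Prox1, Flt4, Itgb5, Itgb3, Flt3, Maf, Pparg, Ppard, Rxra, Elane, Dmbt1, Adipoq, Cd3d, Cd3e, Cd3g) were named after their values were seen. Alternatives were median centring, loess centring (span 0.4), a floor at the 25th percentile, the mean of probe sets, other signal rules, sizes of 1.5-fold and 3-fold, and means of lists. The main differences and the 2-fold size were also tested on simulated data with known changes, placed in bright genes without other probe sets. These changes were well past 2-fold and the added noise was under the robust SD of all differences. Their recovery was therefore close to certain beforehand and checks the calculation only. The alternatives, the list medians and the motif search were not tested on simulated data. Calculations used Python 3.11.15, numpy 2.4.6, pandas 2.3.3, statsmodels 0.14.6 and matplotlib 3.10.9.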

Additional observations from a re-analysis of the deposited data

How the results depend on the processing

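The count of 5 members at least 2-fold lower was the same under both centrings, the floor, the mean of probe sets, both other signal rules and a size of 3-fold, and was 6 at 1.5-fold, where Mfge8 joined. The count of higher members was 0 under each of these. The median of the members was -1.28 without a signal rule, which adds Marco. Among the surrounding lists, the median of the closest relatives (0.12) turned to -0.065 and that of the lymphocyte markers (-1.46) to 0.10 without a signal rule. In place of the median, the mean turned the sign for the phosphatidylserine receptors (0.087), lipid handling (0.055), the closest relatives (-0.38) and the endothelial and lymphatic markers (-0.015). Under the signal rule on both arrays the higher neutrophil markers were 5 in place of 14 and the lower relatives 0 in place of 1 (Colec12), because fewer genes qualify. Median centring gave 4 higher dendritic cell markers in place of 2. The resident macrophage median of -1.14 was -2.04 as a mean. No paired analysis was possible because each group has 1 array. Signals near the medians (Folr2, Mfge8, Timd4 and Colec12 in DSS, Cd300lf and Olr1 in control, Marco on both) limit those differences.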
